A study of Mus musculus with 8 samples.

Results

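The members were the 38 Hox genes listed for the HoxA, HoxB, HoxC and HoxD clusters, out of 22238 protein-coding genes in the annotation. They were found by their position in the mouse genome build mm9, and each cluster was taken from its lowest to its highest listed gene with 10 kb on each side. Stromal cells from the bone marrow of C57BL/6J mice, wild type in genotype and 6 weeks old, were examined by ATAC-seq, a method that reads open chromatin from the places where a transposase can insert sequencing adapters. The study sorted mesenchymal stem and progenitor cells into 7 populations to compare their open chromatin, and its ATAC-seq libraries are titled ATAC1 to ATAC7, with an Input library as the control. The labels do not tie a title to a sorted population, so the libraries are called by their titles. All libraries share strain, genotype, age and tissue. Each title had 1 library, so no value below has a replicate, no difference was tested, and the intervals given cover counting error only. In a bulk library, fewer cells with an open site and less opening per cell cannot be told apart.

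Hox genes encode homeodomain transcription factors that give cells a position along the body axis and the limb. They lie in clusters, and the order of the genes along a cluster follows the order of their domains in the embryo, with low-numbered paralogue groups towards the head and high-numbered groups towards the tail and the end of the limb. Many adult stromal cells keep part of this pattern, and Polycomb and Trithorax group proteins are known for holding Hox genes in a silent or an active state.

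Of the 38 Hox genes, 11 had a peak at a start site in at least 1 library, 6 of them in HoxA, 4 in HoxC, 1 in HoxD and 0 in HoxB. The gene called most often was Hoxa7, with a peak in 6 libraries, followed by Hoxc10 in 5, and by Hoxa4 and Hoxd8 in 4 each. The clusters held 65 peaks, which merged across libraries into 24 regions of the 50683 in the genome, and none of the 24 was called in all 7 libraries, against 16.6% of all regions. The ATAC5 list had 23 of the peaks, ATAC2 had 16 and ATAC6 had 14, while the other libraries had 1 to 5.

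The sequences of the peaks the results turn on are printed from the genome build NCBIM37, which is mm9. They are the peaks at Hoxa4 and Hoxa7, chosen from the 4 genes with a start-site peak in 4 or more libraries, and the HoxC peak off any start site that was called in most libraries. The peak at a long noncoding RNA of HoxD is added, and it was chosen after its values were seen. Capitals mark a match to 1 of the 4 motifs searched on both strands, which were the core of the CTCF motif, TGATTNAT (bound by PBX with HOX proteins), TTTATGG (bound by posterior HOX proteins) and TGACAG (bound by MEIS proteins). These motifs do not contain each other, and the letters of the CTCF core are those in capitals in the HoxD sequence. Strand is that of the Hox gene, and the HoxA sequences are on the minus strand.
Hoxc6 intron peak of ATAC6, chr15:102832528-102832785, plus strand: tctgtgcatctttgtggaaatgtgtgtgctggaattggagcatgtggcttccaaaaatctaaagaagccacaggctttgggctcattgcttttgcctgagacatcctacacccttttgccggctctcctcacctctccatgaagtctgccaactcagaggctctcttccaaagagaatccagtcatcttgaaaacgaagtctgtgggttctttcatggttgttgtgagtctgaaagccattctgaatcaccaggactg
HoxD noncoding RNA peak of ATAC5, chr2:74553954-74554041, plus strand: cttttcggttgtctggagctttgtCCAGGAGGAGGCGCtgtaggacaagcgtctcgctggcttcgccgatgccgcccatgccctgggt
Hoxa4 peak of ATAC6, chr6:52141874-52142028, minus strand: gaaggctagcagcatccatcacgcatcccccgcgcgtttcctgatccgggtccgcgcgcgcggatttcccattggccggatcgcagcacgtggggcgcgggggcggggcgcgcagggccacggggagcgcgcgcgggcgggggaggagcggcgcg
Hoxa7 upstream part of the ATAC2 peak, chr6:52171854-52172153, minus strand: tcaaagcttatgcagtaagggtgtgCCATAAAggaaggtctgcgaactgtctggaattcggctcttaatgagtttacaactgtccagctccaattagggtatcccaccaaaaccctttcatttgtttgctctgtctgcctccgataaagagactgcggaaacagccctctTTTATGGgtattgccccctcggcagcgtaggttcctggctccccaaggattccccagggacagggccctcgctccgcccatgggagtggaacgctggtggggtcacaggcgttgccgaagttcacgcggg

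The Hoxa4 stretch held 27 CpG dinucleotides in 155 bases, whereas the Hoxc6 intron stretch held 2 in 258 bases. The Hoxa7 stretch lay directly upstream of the gene's outermost start and held 2 matches to the posterior HOX motif. The HoxD stretch held the 1 match to the CTCF core among the Hox regions. In windows of 300 bases around the region centres, the CTCF core was present in 4.17% of the 24 Hox regions and in 4.85% of all 50683 regions. The PBX-HOX motif was present in 1 Hox region (4.17%, against 3.73% of all), which lay in the flank beyond Hoxa2, and the posterior HOX motif in 1 (4.17%, against 2.49%). The MEIS motif was present in 3 Hox regions (12.5%, against 21.1%), at Hoxa3, Hoxa4 and Hoxd8. At Hoxa4 its match lay outside the printed bases. A match is a run of letters and was not shown to be bound. As a set the Hox regions were rich in CpG, with a median observed over expected ratio of 0.751 against 0.360 over all regions, and a median GC content of 62.2% against 53.0%.

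The peaks were not spread evenly along the clusters. HoxA (chromosome 6, genes at 52112350 to 52210874) had 15 regions in a span of 118.525 kb, HoxC (chromosome 15, 102751534 to 102867274) had 6 in 135.741 kb, and HoxD (chromosome 2, 74506367 to 74603200) had 3 in 116.834 kb. HoxB (chromosome 11, 96055630 to 96229570) had 0 in 193.941 kb, the longest of the spans. Between the outermost listed genes of a cluster lay 21 of the regions, and 3 lay in the flank beyond Hoxa2.

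**Figure D1:**
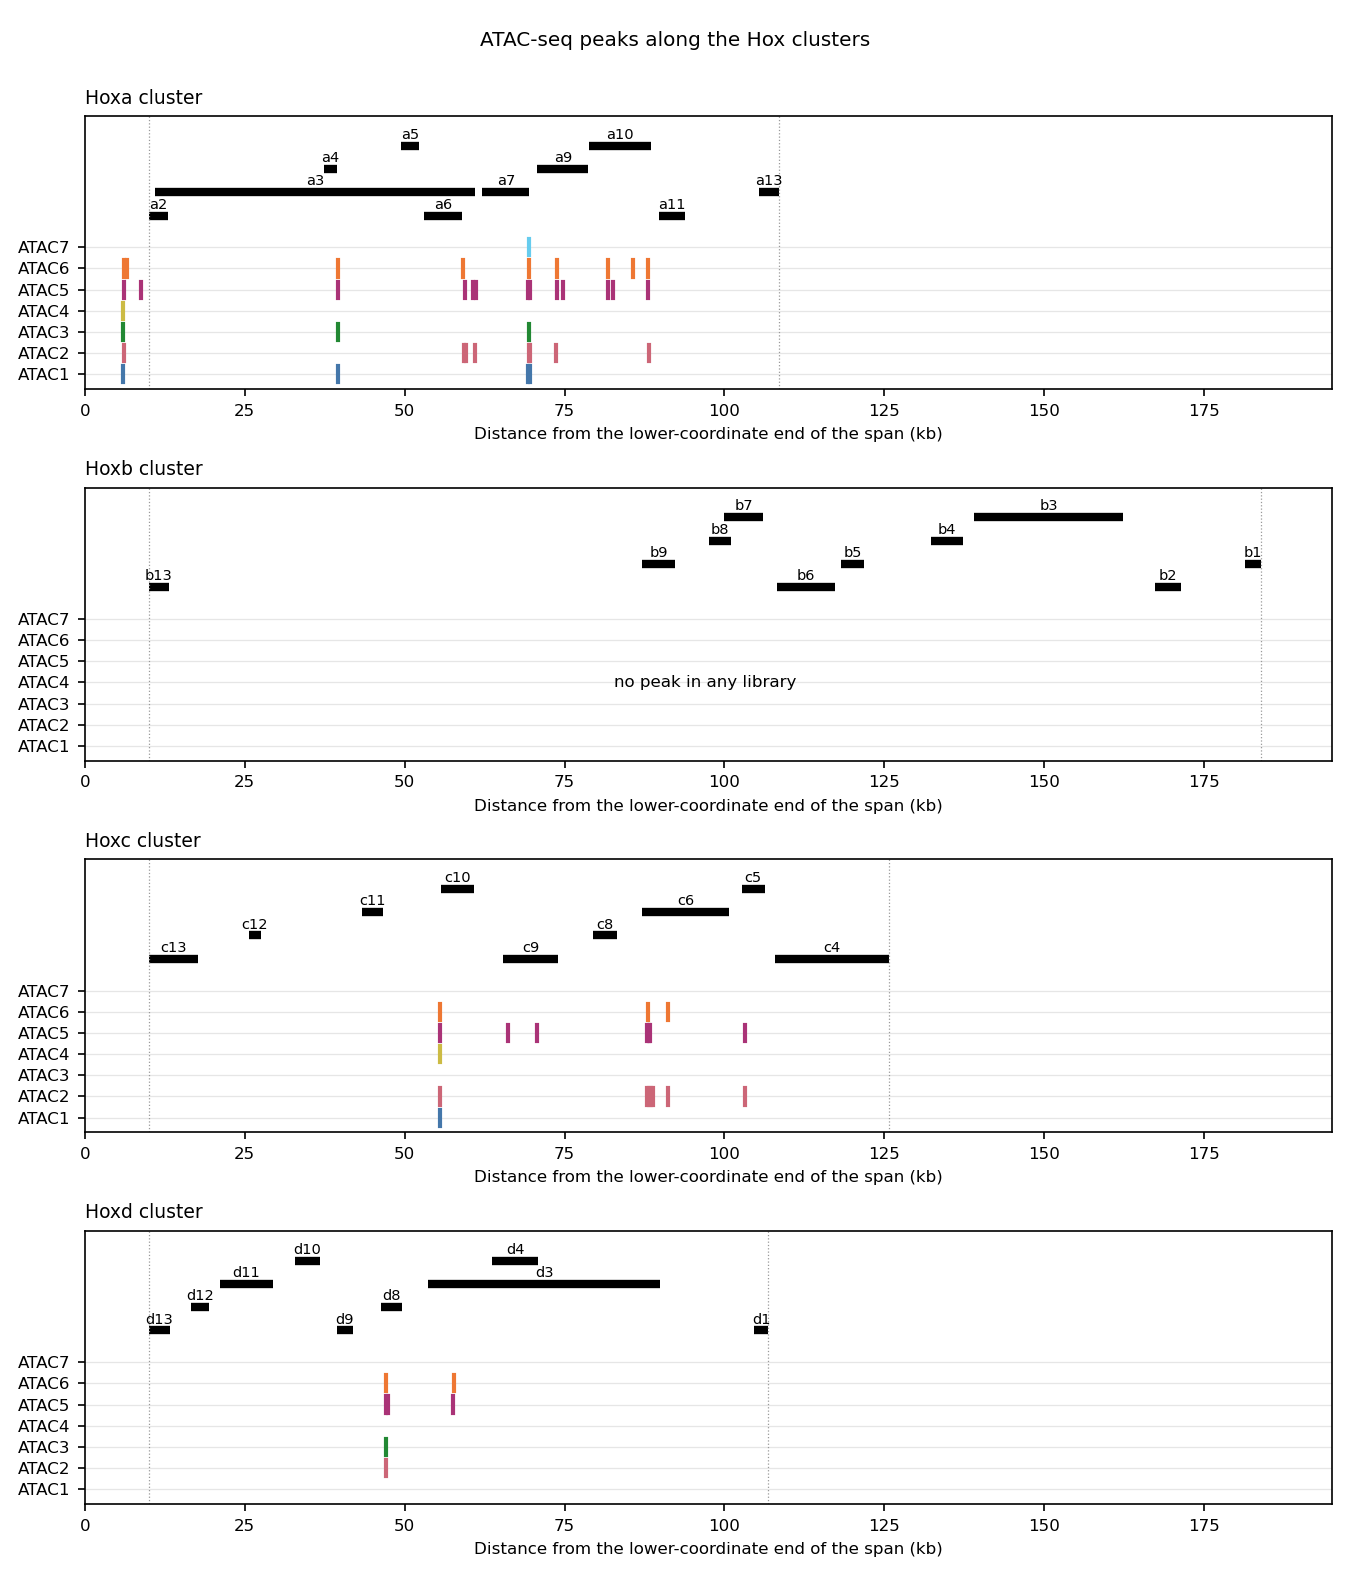
Positions of ATAC-seq peaks (coloured ticks, 1 line per library) and of the listed Hox genes (black bars, named by cluster letter and number) against distance in kb from the lower-coordinate end of each span, with dotted lines at the outermost listed genes. The peaks gather in the middle of HoxA, HoxC and HoxD, and HoxB has no peak in any library.

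Within HoxA, 12 regions lay in 48.7 kb from Hoxa4 to Hoxa10. The part from Hoxa6 to Hoxa10, 29.3 kb long, held 11 of them. The next 65.5 kb beyond the last region at Hoxa10, which contain Hoxa11 and Hoxa13, the genes known for patterning the forearm and the hand, had no peak in any library. In HoxC the 6 regions lay in 47.9 kb from Hoxc10 to Hoxc5, with 147 kb free of peaks on the side of Hoxc11 to Hoxc13 and 149 kb on the side of Hoxc4. In HoxD the 3 regions lay within 10.7 kb, at Hoxd8 and at a noncoding RNA inside the Hoxd3 gene, with 49.4 kb free of peaks towards Hoxd13 and 79.6 kb towards Hoxd1.

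By paralogue group, 1 of 7 genes of groups 1 to 3 had a start-site peak in at least 1 library. In groups 4 to 8 the count was 6 of 15, in groups 9 and 10 it was 4 of 7, and in groups 11 to 13 it was 0 of 9. Groups 6, 9 and 10 each had 2 called members, which were Hoxa6 and Hoxc6, Hoxa9 and Hoxc9, and Hoxa10 and Hoxc10. Groups 3, 4, 5, 7 and 8 had 1 called member each, and groups 1 and 2 had 0.

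A start-site peak was counted where the centre of a peak lay within 1000 bases of any annotated start. ATAC5 had such a peak at 11 of 38 Hox genes, where 52.8% of all protein-coding genes had a peak. ATAC2 had 9 (all genes 50.3%) and ATAC6 had 8 (51.7%). ATAC1 had 3 (49.1%) and ATAC3 had 3 (43.6%). ATAC4 had 1 (43.8%) and ATAC7 had 1 (42.1%). The Hox share was thus 28.9% in ATAC5 (95% Wilson interval 17.0 to 44.8) and 2.63% in ATAC4 and ATAC7 (0.466 to 13.5). In every library the upper end of the interval for the Hox share lay below the share of all protein-coding genes. In at least 1 library the Hox share was 28.9%, against 56.8% of all protein-coding genes, and in all 7 libraries it was 0 of 38 genes, against 36.9% (68% of CpG-rich genes). Hox genes are neighbours within a cluster and are not independent of each other, so the intervals are a guide to the small number of genes only.

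**Figure D2:**
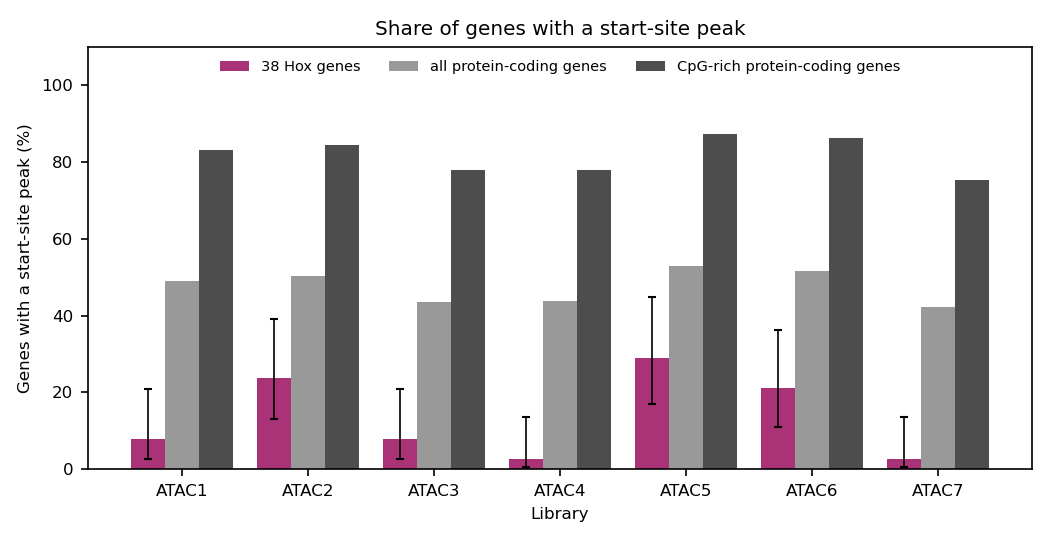
Percent of genes with a start-site peak in each library for the 38 Hox genes (purple, with 95% Wilson intervals), all protein-coding genes (light grey) and protein-coding genes with a CpG-rich start (dark grey). The Hox bars run from 2.63% to 28.9% and stay below both grey bars in all 7 libraries.

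As a set, Hox starts were not poor in CpG. A start was called CpG-rich when the observed over expected CpG ratio was at least 0.6 and the GC content at least 50% within 500 bases on each side, and 19 of 38 Hox genes met this. Of all CpG-rich protein-coding genes, 91.2% had a start-site peak in at least 1 library, and of the 19 Hox genes 6 did. The 19 Hox genes included 6 with a peak in ATAC5, where 87.4% of all CpG-rich genes had a peak, 4 in ATAC2 (84.4%), 4 in ATAC6 (86.4%), 3 in ATAC3 (77.9%), 2 in ATAC1 (83.1%), 1 in ATAC7 (75.4%) and 0 in ATAC4 (77.8%). The median CpG ratio was 0.624 for the Hox genes with a peak, 0.671 for those without and 0.545 for all genes. The HoxB genes had a median of 0.439, and 2 of them, Hoxb7 and Hoxb9, were CpG-rich.

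All 11 called Hox genes were called in ATAC5, as were 11752 of the 12633 protein-coding genes called in any library. Of these, 7 had a start-site peak in no library other than ATAC2, ATAC5 and ATAC6, which is 63.6% of the called Hox genes, against 10.8% of the called protein-coding genes. These genes were Hoxa3, Hoxa6, Hoxa9, Hoxa10, Hoxc5, Hoxc6 and Hoxc9. Of the 24 regions, 19 (79.2%) were called in no library but these 3, against 47.2% of all regions. The grouping of these libraries was made after the values were seen and stands in no label. By ATAC-seq peak intensity, the study placed the sorted populations numbered alike in a group of their own. The labels do not tie those populations to the titles. ATAC2, ATAC5 and ATAC6 also had the longest peak lists, with 28969 to 32280 peaks against 15188 to 24510 in the others. Per 100 kb the Hox spans held 4.07 peaks in ATAC5, where the whole genome had 1.19. The corresponding pairs were 2.83 and 1.22 in ATAC2 and 2.48 and 1.09 in ATAC6. ATAC1 had 0.885 in the Hox spans and 0.923 in the genome, and ATAC3 had 0.708 and 0.604. ATAC4 had 0.354 and 0.589, and ATAC7 had 0.177 and 0.572.

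When each list was limited to its best-ranked 15188 peaks, the length of the shortest list, the count of Hox peaks was 7 in ATAC5 and 4 in ATAC6. ATAC1 and ATAC2 had 3 each, ATAC3 and ATAC4 had 2 each, and ATAC7 had 1. ATAC2 and ATAC1 then had the same number. The Hox genes with a start-site peak were 4 in ATAC5 (45.7% of all protein-coding genes), 2 in ATAC6 (46%) and 2 in ATAC2 (41.6%). They were likewise 2 in ATAC1 (44.4%) and ATAC3 (43.2%), and 1 in ATAC4 (43.5%) and ATAC7 (42.1%). Of the 9 regions left, 4 (44.4%) were called in ATAC2, ATAC5 or ATAC6 only, against 20.2% of all regions under the same limit. With peaks of a fold over Input of at least 5 only, ATAC5 kept 9 Hox genes (49.9% of all protein-coding genes), ATAC2 kept 5 (43.4%), ATAC6 kept 3 (47.7%), ATAC1 kept 2 (41.8%) and ATAC3 kept 1 (28.8%). No Hox gene was left in ATAC4 (31.2%) or ATAC7 (27.6%).

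**Figure D3:**
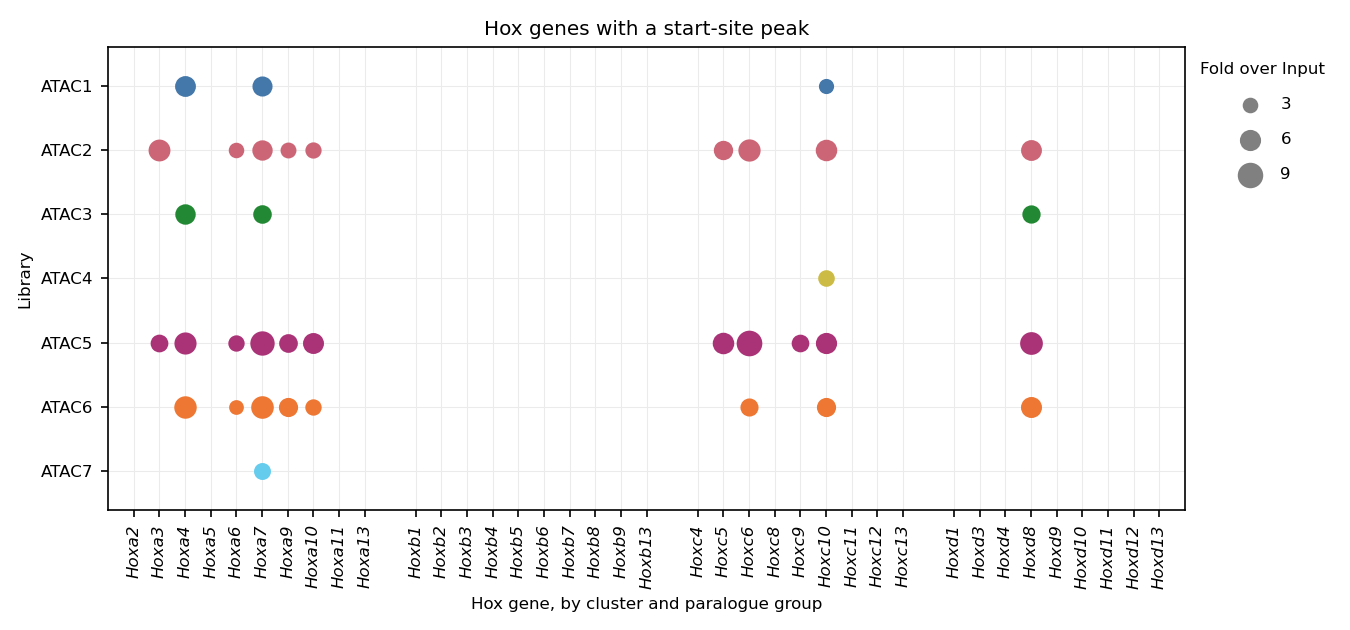
Hox genes with a start-site peak (x axis, by cluster and paralogue group) in each library (y axis), with the area of a dot proportional to the authors' fold over Input of the gene's best-ranked peak. ATAC5 has dots at 11 genes, ATAC4 and ATAC7 have 1 dot each, and no HoxB gene has a dot.

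Hox peaks were weak members of their lists. Of the 65 peaks, 18 ranked in the better 50% of their list, and 29 had a fold over Input below 5. The median fold of Hox peaks was 6.22 in ATAC5, against 10.9 over all peaks of that library. It was 3.52 in ATAC4, against 6.13, and 3.64 in ATAC7 for its 1 Hox peak, against 5.97. The Input reads beneath Hox peaks were denser than beneath all peaks in 6 of 7 libraries. The median ran from 70.5 per 1000 bases in ATAC5, against 53.3 over all its peaks, to 117 in ATAC4, against 77.8. In ATAC3 it was 74.2, against 76.2. The part of Input density in the low folds was not tested.

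Hoxa7 (ENSMUSG00000038236, chromosome 6, 52164490 to 52171853, minus strand), a gene of the thoracic part of the axis, had a region called in 6 libraries. The 1 other region called in 6 libraries lay in the flank beyond Hoxa2, at no member's start. The centre of the Hoxa7 region lay 1 base from an annotated start and fell in the untranslated region. It held 130 library reads in ATAC1 against 30 Input reads. The ATAC2 peak held 139 against 40, the ATAC3 peak 133 against 30 and the ATAC5 peak 186 against 39. With 255 reads against 58 the ATAC6 peak was the deepest, and with 66 against 20 the ATAC7 peak was the shallowest. ATAC4 had no peak there, and the tables hold no value where no peak was called. The ATAC3 peak had rank 7455 of 16027, the best rank of any Hox peak, and the ATAC6 peak had rank 8369 of 28969, which placed it highest within its own list. For comparison between libraries, a read level was taken as reads per 1000 bases divided by the library's median over the 8428 regions called in all 7 libraries. On this scale Hoxa7 stood at 0.551 in ATAC6 (95% Poisson interval 0.486 to 0.623), 0.612 in ATAC2, 0.625 in ATAC1, 0.652 in ATAC5, 0.691 in ATAC3 and 0.855 in ATAC7 (0.661 to 1.09). Only the intervals of ATAC6 and ATAC7 failed to overlap among the 6 libraries. The ATAC7 value came from an outer region of 0.174 kb and the ATAC6 value from 0.777 kb, and the part of this width in the difference was not tested.

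Hoxc10 (ENSMUSG00000022484, chromosome 15, 102797227 to 102802324, plus strand), known for its role in lumbar and hindlimb identity, had a peak at its start. A start of the noncoding gene Gm20398 lay there too, and ATAC-seq does not tell which transcript a peak belongs to. The reads were 85 against 37 Input reads in ATAC1, 114 against 29 in ATAC2, 55 against 18 in ATAC4, 179 against 51 in ATAC5 and 67 against 22 in ATAC6. ATAC3 and ATAC7 had no peak. The read level was 1.03 in ATAC2 (0.849 to 1.24) and 0.891 in ATAC4 (0.671 to 1.16), and these intervals overlapped. Lower levels were found in ATAC6, at 0.583 (0.452 to 0.740), in ATAC5, at 0.538 (0.462 to 0.623), and in ATAC1, at 0.502 (0.401 to 0.620). The ATAC2 interval lay above those of the latter 3 libraries, and that of ATAC4 lay above ATAC5 and ATAC1 only. The outer regions behind these levels were 0.244 kb in ATAC2, 0.134 kb in ATAC4, 0.193 kb in ATAC6, 0.580 kb in ATAC5 and 0.299 kb in ATAC1, and the part of width was not tested here either.

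Hoxa4 (ENSMUSG00000000942, chromosome 6, 52139670 to 52141752, minus strand), a gene of the cervical part of the axis, had a peak 198 bases from its start, inside an intron of the long Hoxa3 transcripts. It held 80 reads against 17 Input reads in ATAC1, 44 against 8 in ATAC3, 112 against 29 in ATAC5 and 117 against 27 in ATAC6. The level was 0.855 in ATAC3 (0.621 to 1.15), 0.560 in ATAC1 (0.444 to 0.697), 0.541 in ATAC6 (0.448 to 0.649) and 0.446 in ATAC5 (0.367 to 0.536). The ATAC3 interval overlapped those of ATAC1 and ATAC6 and lay above that of ATAC5, with outer regions of 0.108 kb in ATAC3 and 0.438 kb in ATAC5. Hoxa4 was the one gene of the 11 with a start-site peak in ATAC5 and ATAC6 and none in ATAC2.

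Hoxd8 (ENSMUSG00000027102, chromosome 2, 74542672 to 74545990, plus strand) was the only gene of its cluster with a start-site peak. Its region, 252 bases from a start and in the untranslated region, held 77 reads against 21 Input reads in ATAC2, 107 against 25 in ATAC3, 250 against 61 in ATAC5 and 101 against 27 in ATAC6. The level was 0.656 in ATAC3 (0.538 to 0.793), 0.628 in ATAC2 (0.496 to 0.785), 0.441 in ATAC5 (0.388 to 0.499) and 0.430 in ATAC6 (0.351 to 0.523). ATAC3 lay above ATAC5 and ATAC6 beyond the intervals, and ATAC2 did not. The outer region was 0.342 kb in ATAC3, 0.989 kb in ATAC5 and 0.394 kb in ATAC6. At Hoxa4 and Hoxd8 too, the part of width was not tested. ATAC5 had a further peak in the coding exon, with 86 reads against 17 Input reads.

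**Figure D4:**
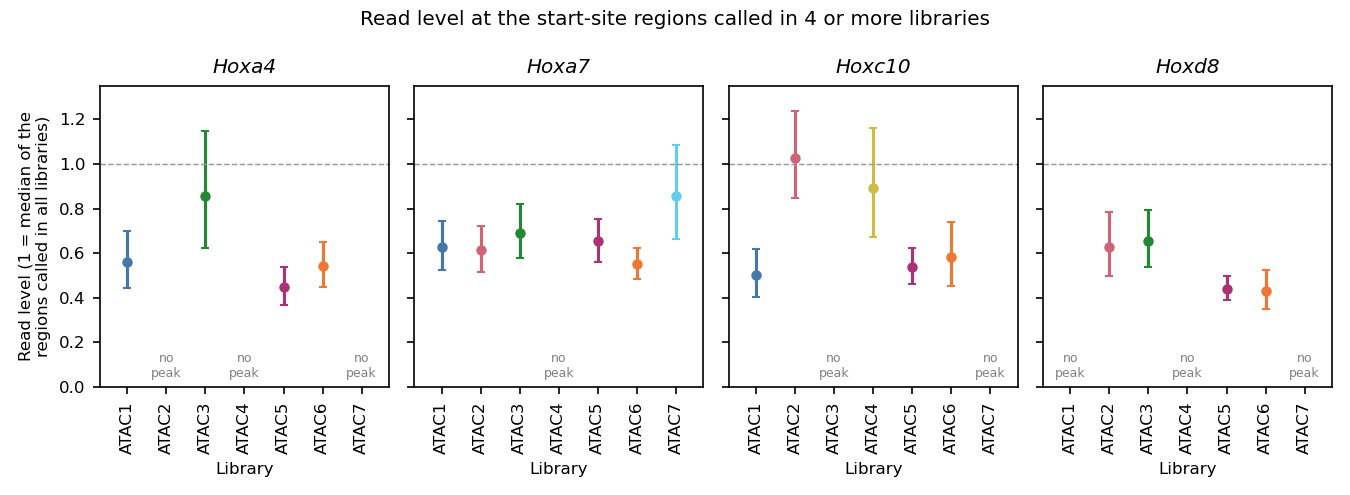
Read level at the Hoxa4, Hoxa7, Hoxc10 and Hoxd8 start-site regions in each library (points, with 95% Poisson intervals for counting error), where 1 (dashed line) is the library's median over the regions called in all libraries. All points but that of Hoxc10 in ATAC2 lie below 1, and libraries without a peak have no value.

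The other start-site genes of HoxA were called in ATAC2, ATAC5 and ATAC6 or in part of these. Hoxa9 and Hoxa10, genes with known roles in the posterior axis and in blood cells, each had peaks in all 3. At Hoxa9 the best-ranked peaks held 117 reads in ATAC2, 207 in ATAC5 and 58 in ATAC6, against 59, 78 and 19 Input reads. Hoxa10 had 3 regions, at its coding exon and at a distal start, and the distal region held 48 reads in ATAC2, 137 in ATAC5 and 93 in ATAC6, against 23, 40 and 38 Input reads. Hoxa6 had the lowest fold of the called HoxA genes in each of these libraries, at 2.63 in ATAC6, 2.96 in ATAC2 and 3.35 in ATAC5. The Hoxa3 peaks of ATAC2 and ATAC5 lay 12 to 157 bases from its distal starts near Hoxa6, and its more proximal starts had no peak. Neither Hoxa2 and Hoxa5 nor Hoxa11 and Hoxa13 were called at a start in any of the libraries.

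In HoxC, the best-ranked peaks of the Hoxc6 region held 131 reads against 37 Input reads in ATAC2, 177 against 39 in ATAC5 and 67 against 25 in ATAC6. In ATAC2 and ATAC5 these peaks lay more than 1000 bases from a start. The best-ranked start-site peaks held 127 reads against 30 in ATAC2 and 96 against 18 in ATAC5. The levels of the region were 0.607 (0.508 to 0.721), 0.588 (0.504 to 0.681) and 0.353 (0.273 to 0.448). ATAC6 thus lay below both others beyond the intervals. A further region in the Hoxc6 intron, 1700 bases from a start, held 55 reads against 11 Input reads in ATAC2 and 50 against 14 in ATAC6. It was low in CpG, with a ratio of 0.104, the lowest of the 24 regions. Hoxc5 had a peak in ATAC2 (59 reads against 19) and ATAC5 (69 against 19), and Hoxc9 had a peak in ATAC5 (42 against 18). Hoxc4, Hoxc8, Hoxc11, Hoxc12 and Hoxc13 had no start-site peak.

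In HoxD, Hoxd1, Hoxd3, Hoxd4 and Hoxd9 to Hoxd13 had no start-site peak. The region with the CTCF core lay 56 bases from a start of the noncoding RNA 1700109F18Rik and 4011 bases from the nearest Hoxd3 start. It held 47 reads in ATAC5 and 66 in ATAC6, against 10 Input reads in each, and its fold of 10.4 in ATAC6 was the highest of the 65 Hox peaks. The off-start region of HoxA named by the rule lay 4261 bases beyond Hoxa2 and was called in ATAC5, with 65 reads against 17 Input reads. It was tied with a region in the Hoxa10 intron, called in ATAC6 with 39 reads against 15 Input reads, and came before it by rank. HoxD had no region off every annotated start.

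Of the 24 regions, 20 lay at an annotated start of any gene (83.3%, against 40.3% of all regions), and 17 of them at a start of a member. The centre lay in a coding exon in 7 regions, in an untranslated region in 4, in a noncoding exon in 4, in an intron in 8 and between genes in 1. Called in 1 library were 11 regions (45.8%, against 40.9% of all), of which 8 were in ATAC5, 2 in ATAC6 and 1 in ATAC2. This count depended on the overlap rule, with 23 of 39 regions at 50% reciprocal overlap, 7 of 21 with outer regions and 5 of 19 with peaks within 500 bases joined.

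Over all its Hox regions, each library had a pooled read level below that of its common regions. The lowest values were 0.431 for ATAC6 (0.407 to 0.455) and 0.459 for ATAC5 (0.440 to 0.478), followed by 0.552 in ATAC1 (0.498 to 0.611), 0.603 in ATAC2 (0.565 to 0.643), 0.640 in ATAC3 (0.575 to 0.712), 0.762 in ATAC4 (0.637 to 0.905) and 0.855 in ATAC7 from 1 region. These are not levels of the same regions, since libraries with fewer Hox peaks enter with fewer regions.

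The HoxB cluster was free of peaks in all 7 libraries. At each library's genome mean its span would have held 1.11 peaks in ATAC7 to 2.36 in ATAC2. The nearest peak on the side of Hoxb13 lay at Atp5g1, a gene of the mitochondrial ATP synthase, 118 kb beyond the Hoxb13 gene in every library. On the side of Hoxb1 it lay 45.3 to 45.4 kb beyond that gene in ATAC1, ATAC4, ATAC5 and ATAC7, and 398 to 409 kb beyond it in ATAC2, ATAC3 and ATAC6. The stretch without a peak of any library was 337.559 kb long and held 13 protein-coding genes, of which 10 were the HoxB members. Of 1273 stretches without peaks that were at least as long, 14, this one included, held as many protein-coding genes per length or more. Olfactory receptor genes led 7 of these and keratin genes led 2. The comparison with other stretches was chosen after the HoxB values were seen.

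The clusters also carry microRNA genes, of which the miR-196 and miR-10 families are known for targeting Hox transcripts. Mir615 lay 452 bases from the nearest region, at Hoxc5. Mir196b lay 2911 bases away, Mir196a-2 3759 bases and Mir10b 10086 bases. Mir196a-1 and Mir10a lie in HoxB and had no peak in the cluster.

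Genes for proteins that work with HOX factors were counted by the same rule. Of 9 genes of the PBX, MEIS and PKNOX families, which bind DNA together with HOX proteins, 6 had a start-site peak in ATAC4 and 8 in each of the other libraries, where 42.1% (ATAC7) to 52.8% (ATAC5) of all protein-coding genes had a peak, with 43.8% in ATAC4. In all 7 libraries 4 were called, against 36.9% of all protein-coding genes. Meis1 was called in 5 libraries and not in ATAC1 or ATAC4, with a fold of 4.17 in ATAC7 to 10.99 in ATAC5. Folds follow the scale of a library, whose median over the common regions was 6.09 in ATAC7, 6.52 in ATAC4, 13.7 in ATAC6 and 14.6 in ATAC5.

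Of 21 annotated Polycomb and Trithorax group genes, 17 to 19 had a start-site peak in a library and 15 in all 7, beside the same shares of all protein-coding genes (42.1% to 52.8% in a library and 36.9% in all 7). Mll1, the older name of Kmt2a, encodes a histone methyltransferase known for keeping Hox genes active. It was called in all 7, with a fold of 7.33 in ATAC7 and 17.0 in ATAC5. Its fold lay above the library's median over the common regions in every library but ATAC2, where it was 8.67 against 9.68. Bmi1, a Polycomb gene, was called in 5 libraries and not in ATAC5 or ATAC6. Ash1l was the 1 gene of the list without a peak.

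Of 18 genes of limb and axial patterning, 2 in ATAC4 (43.8% of all protein-coding genes) to 7 in ATAC5 (52.8%) had a start-site peak. Of the 18 genes, 11 had none in any library, where 56.8% of all protein-coding genes had a peak in at least 1. Without a peak were Evx1 and Evx2, which neighbour HoxA and HoxD, the forelimb gene Tbx5, the hindlimb gene Tbx4 and the limb mesenchyme gene Prrx1. Pitx1, a hindlimb gene, had a peak in ATAC5 (51 reads against 12 Input reads) and ATAC6 (56 against 9). Tbx3 was called in all 7 libraries, with a fold of 3.89 in ATAC4 and 10.9 in ATAC6. Its fold lay below the library's median over the common regions in ATAC1, ATAC4, ATAC5, ATAC6 and ATAC7. In ATAC2 it lay above, at 9.95 against 9.68, and in ATAC3 too, at 6.39 against 6.14.

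The marker lists of cell types were counted in the same way. Of 20 stromal markers, 10 in ATAC2, 12 in ATAC5 and 9 in ATAC6 had a start-site peak, where 50.3%, 52.8% and 51.7% of all protein-coding genes had a peak. In ATAC1 there were 6 (49.1%), in ATAC3 there were 3 (43.6%), in ATAC4 there were 3 (43.8%) and in ATAC7 there were 7 (42.1%). Snai2 was called in all 7 libraries, whereas Prrx1, Lepr and Dcn, which mark stromal cells of bone marrow, were among the 7 markers without a start-site peak in any. Of 19 annotated haematopoietic markers, 11 had a peak in ATAC5 (52.8% of all protein-coding genes), 10 in ATAC1 (49.1%), 9 in ATAC3 (43.6%) and 8 in ATAC4 (43.8%), all near the share of all genes. There were 7 in ATAC6 (51.7%), 4 in ATAC2 (50.3%) and 3 in ATAC7 (42.1%). According to the study's methods, the sorted cells were negative for the endothelial antigen CD31, the leukocyte antigen CD45 and the erythroid antigen Ter119. Ikzf1 was called in all 7 libraries, and 6 markers had no peak in any. Of 20 endothelial markers, 0 in ATAC3 and ATAC7 to 6 in ATAC5 had a peak, and 14 had none in any library, where 56.8% of all protein-coding genes had a peak in at least 1. The part of cell composition and of list length in the Hox counts was not tested.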

How the data were processed

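The authors aligned ATAC-seq reads to the mm9 genome using bowtie. Each library had its peaks called against Input by CisGenome in two-sample analysis, at a p-value limit of 1e-05 and an FDR under 0.01. Transposase shift and duplicate removal are not given in the sources used here, and without a shift the edges of peaks would be displaced by some bases. The deposited tables give the ranked position of each peak, whole read counts for library and Input over a wider outer region, and the authors' fold over Input, a ratio scaled by 1 factor per library. Of the deposited columns, the window statistics, which are non-negative signal values, were not used. Peak positions were the same in both deposited lists for all 164103 peaks.

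Peaks sharing at least 1 base were merged into regions. Genes, starts and sequences came from NCBIM37 with GENCODE vM1, and transcript starts of all 38 members were found. Of the listed symbols, Utx, Kmt2a and Spi1 were not in the annotation under these names. Where a library had several peaks in a region, the best-ranked gave the read level. Intervals were exact Poisson (95%) for reads and Wilson for shares of genes. The overlap and start-site steps were tested on simulated data. Computations used Python 3.11.15 with scipy 1.17.1, pandas 2.3.3, matplotlib 3.10.9 and numpy 2.4.6.

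The members and gene lists were chosen with earlier results of these data known. By rule, values in every library were given for genes with a start-site peak in at least 4 libraries and, per cluster, for the best-ranked peak and the off-start peak called in most libraries. Values of other Hox genes and the noncoding HoxD region were added after they were seen. From other lists the most and least often called genes and 10 fixed genes could be named. Alternatives were a fold of at least 5, equal peak numbers, other flanks, start distances and start sets, other overlap rules, and fold in place of read level. Libraries were grouped by title, and total sequencing depth is unknown because the tables count reads in peaks only. The values of 1 listed cofactor gene and the sequence of 1 peak are not reported here.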

Additional observations from a re-analysis of the deposited data

How the results depend on the processing

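Counts were taken as changed past 1.5 times and read levels past their counting interval. The CpG-rich background, the overlap of a peak with the start window and the joining of peaks within 500 bases were chosen after seeing the data. No paired analysis was possible because every title stands for 1 library and no result comes from a test. Leaving out a replicate was not possible for the same reason. No region was called in all 7 libraries under any overlap rule, fold limit or list length tried. The start distances of 500 and 2000 bases, protein-coding starts and the window overlap kept all 7 gene counts within 1.5 times.

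With a fold of at least 5, Hox peaks numbered 2 in ATAC1, 1 in ATAC3, 0 in ATAC4, 5 in ATAC6 and 0 in ATAC7. Hox genes with a start-site peak numbered 5 in ATAC2, 1 in ATAC3, 0 in ATAC4, 3 in ATAC6 and 0 in ATAC7, and 2 regions were called in at least 4 libraries. With equal peak number, Hox peaks numbered 3 in ATAC1, 3 in ATAC2, 2 in ATAC3, 7 in ATAC5 and 4 in ATAC6. Hox genes numbered 2 in ATAC2, 4 in ATAC5 and 2 in ATAC6, and of 9 regions 4 were called in 1 library and 1 in at least 4. Fewer peaks enter both by construction. With 50% reciprocal overlap there were 39 regions, 23 called in 1 library and 3 in at least 4. Regions called in 1 library numbered 7 with outer regions and 5 with peaks within 500 bases joined. Without a flank ATAC4 had 1 Hox peak, and with a flank of 50 kb ATAC7 had 2. With fold over Input in place of reads, the pooled level was 0.446 in ATAC1, 0.494 in ATAC2, 0.541 in ATAC4, 0.392 in ATAC5, 0.345 in ATAC6 and 0.598 in ATAC7, and the cause was not tested.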
